A study of Rattus norvegicus with 4 samples.

Results

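The genes described here encode the RBM proteins, named for their RNA-binding motif, together with the RBMS and RBFOX proteins of the same kind. They were taken by gene name from the expression table of cultured heart muscle cells: every symbol that begins with Rbm and a number, Rbms and a number, or Rbfox and a number. The pattern matched 43 of 18699 genes in the table. The family was proposed with results of this same comparison in view, and Rbm11, Rbm20 and Rbm24 were chosen by their change with carfilzomib or their known role in heart splicing. The values of these 3 genes are therefore a description, given without a test.

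The cells were ventricular myocytes of wild-type Sprague Dawley rats, isolated 1 to 3 days after birth and grown with 0.1 mM bromodeoxyuridine, which holds back dividing cells of other types. In 2 libraries the cells had received vehicle, and in the other 2 they had received 1 µM carfilzomib for 24 h. Carfilzomib is an irreversible inhibitor of the proteasome and a drug for multiple myeloma. The study asks how it harms heart cells. The labels do not say if replicates were separate cultures or animals; their p-values cover no more than the variation among these 4 libraries, which could be purely technical.

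Most RBM proteins bind RNA through RNA recognition motifs, a fold in which aromatic residues stack on the bases of single-stranded RNA. Some sit in the spliceosome, some choose exons in 1 tissue, and others act in messenger export, decay, ribosome assembly or translation. In heart muscle RBM20 is the best known of them: it controls which exons of titin and of several calcium-handling genes are joined, and its mutation causes dilated cardiomyopathy. RBM24 is needed for the splicing of muscle exons and for the assembly of the sarcomere.

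The libraries held between 18655499 and 18884362 estimated counts. Differences are given in CPM, the counts scaled by library size and TMM factor, and levels of different genes in FPKM, which divides by gene length. All fold changes are carfilzomib over vehicle. A gene is said to have risen or fallen where edgeR's quasi-likelihood test gave an adjusted p below 0.05 over all 14519 genes tested. Of the marker genes of heart muscle cells, 8 of 8 fell, and their summed level went from 28180 and 28012 CPM with vehicle to 5873 and 5663 CPM with carfilzomib. All 8 fibroblast markers fell as well, from sums of 27684 and 28241 to 15511 and 14787 CPM, and no marker on either list was at 0. In bulk RNA, fewer cells of a type and less of the RNA per cell cannot be told apart. All 4 smooth muscle markers and the 5 tested macrophage markers fell too, to sums of at most 1296 and 28.2 CPM. The macrophage marker Adgre1 had 25 and 19 counts with vehicle and 4 and 3 with carfilzomib. It reached the minimum for a test through the vehicle libraries alone, the group in which it was high. Its fall is therefore not read as support. Of the 5 endothelial markers 1 rose and 2 fell, and their sums stayed between 59.7 and 60.4 CPM. That steady sum holds opposite moves. In 4 of the 5 both treated libraries lay below both vehicle libraries, and the median of the 5 was -0.39 on the log2 scale. Of these 4, Pecam1 and Cdh5 did not pass the test. The groups did not overlap in 79.9% of all genes tested, with 5813 of 14519 below, so nothing is read from that count. Tek, the most abundant endothelial marker, rose by 0.38 on the log2 scale.

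As a whole the family kept nearly the same summed CPM while its members moved in both directions. The summed level of the 43 genes was 2643 and 2610 CPM in the vehicle libraries and 2640 and 2623 CPM in the carfilzomib libraries. Of 42 members tested 16 were called higher, 8 lower and 18 neither, so that 24 were called, 57.1%, against 60.7% of all genes tested. Among all genes 30.6% were called higher and 30.1% lower. Rbm11 and Rbm24 are among the calls, and since the comparison was known when the family was chosen nothing is read from these counts. Left to the 39 tested members other than Rbm11, Rbm20 and Rbm24, the counts were 15 higher, 7 lower and 17 neither. The median log2 fold change was 0.05 in the family and 0.00 over all genes, and in the family it was 0.12 without vehicle replicate 1 and -0.01 without vehicle replicate 2. In 34 of the 42 the CPM values of the 2 groups did not overlap, which held for 79.9% of all genes. Without carfilzomib replicate 1, 13 members were called higher and 5 lower.

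**Figure D1:**
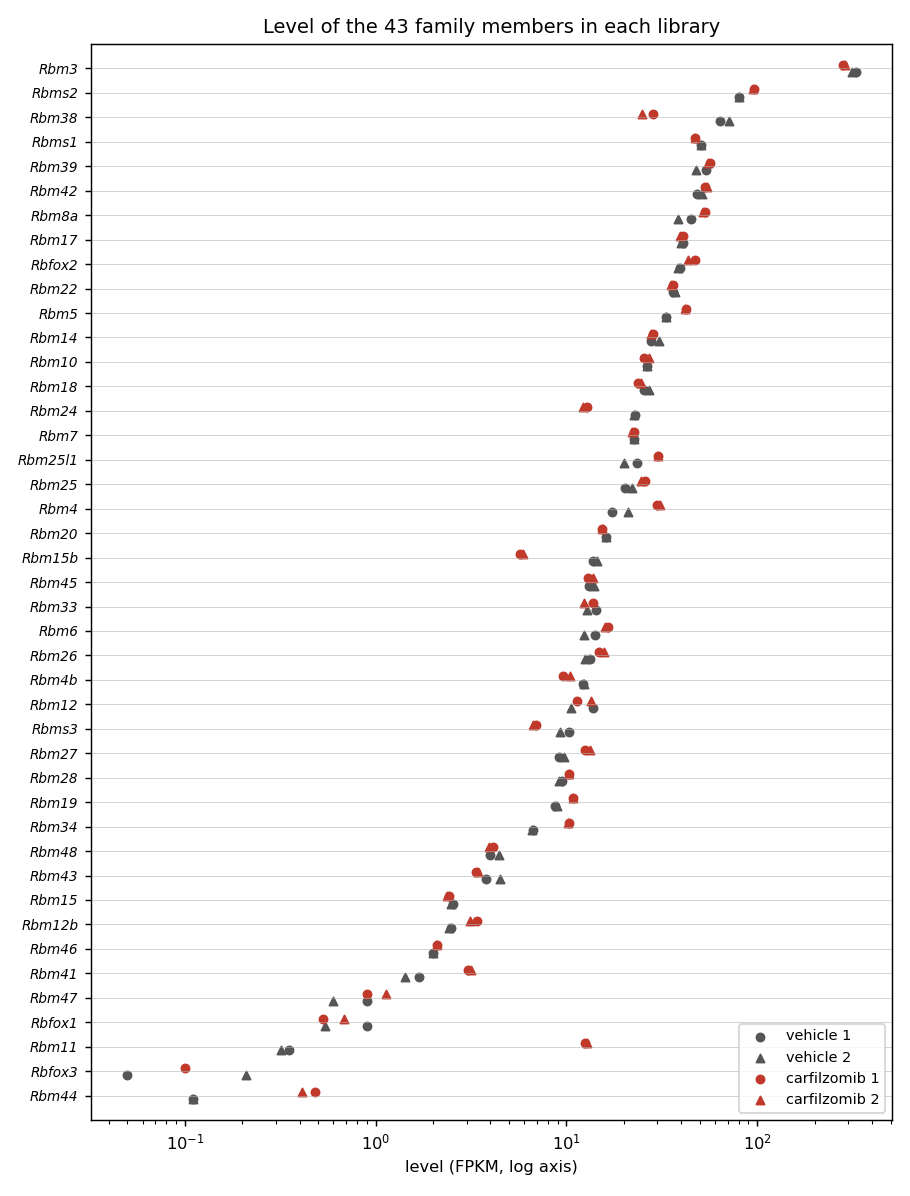
Level of each of the 43 members in each of the 4 libraries, in FPKM on a log axis, ordered by the vehicle mean; grey symbols are vehicle, red symbols carfilzomib, and circles and triangles are replicates 1 and 2 (the 0 of Rbfox3 in carfilzomib replicate 2 is not drawn). Rbm3 stands at the top near 300 FPKM in all libraries, and Rbm11 moves from 0.335 to 12.7 FPKM on average.

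Levels per length spanned more than 3 orders on a log10 axis. Rbm3, the cold-inducible member, led with 322 ± 10.6 FPKM with vehicle (mean ± SD, n = 2), followed by Rbms2 with 80.5 ± 0.226 and Rbm38 with 67.4 ± 5.56 FPKM. Below them Rbms1, Rbm39 and Rbm42 lay at 50.9 ± 0.177, 50.7 ± 4.45 and 49.7 ± 1.86 FPKM, closer together than their spread. Rbm20 was in the middle of the order, the 20th of 43, at 16.1 ± 0.0495 FPKM, and Rbm24 the 15th at 22.7 ± 0.276 FPKM. At the lower end stood Rbfox1 with 0.720 ± 0.255, Rbm11 with 0.335 ± 0.0212, Rbfox3 with 0.130 ± 0.113 and Rbm44 with 0.11 FPKM in each vehicle library. With carfilzomib Rbm38 was the 14th, Rbm24 the 26th and Rbm11 the 25th.

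Among the regulators of muscle splicing the paralogs Rbm24 and Rbm38 were lower with carfilzomib, while Rbm20 lay slightly under its vehicle level. Rbm24 (gene ID 690139) was at 59.5 and 58.7 CPM in the vehicle libraries and at 32.5 and 31.1 CPM in the carfilzomib libraries. Both treated libraries lay below both vehicle libraries, and the log2 fold change was -0.89 ± 0.06 (SE). Rbm38 (gene ID 366262), an RNA-binding target gene of p53 that stabilises the messenger of the cell cycle inhibitor p21, was at 112 and 126 CPM with vehicle and at 48.9 and 43.2 CPM with carfilzomib. It fell 2.58-fold, by 1.37 ± 0.07 (SE) on the log2 scale, and the edgeR adjusted p was 3.72e-09. The groups were far apart compared with the spread inside each. Summed levels of heart muscle and fibroblast markers moved the same way, as given above, and their part in these values was not tested.

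For Rbm24, Rbm38 and Rbm15b, the 3 members with the lowest log2 fold changes, the stretch around the gene start is shown, 250 bases before to 50 bases after it, so that the control regions of genes that were lower together can be compared. The sequences come from RefSeq, build GRCr8, while the counts rest on Rnor_6.0. Rbm24 lies at chr17:18493579-18493878 on the minus strand, Rbm38 at chr3:182219669-182219968 on the plus strand (the upstream one of 2 starts), and Rbm15b at chr8:116425325-116425624 on the minus strand. Each is written 5′ to 3′ along its gene, and capitals mark a match to 1 of the 5 motifs named after the sequences.
Rbm24: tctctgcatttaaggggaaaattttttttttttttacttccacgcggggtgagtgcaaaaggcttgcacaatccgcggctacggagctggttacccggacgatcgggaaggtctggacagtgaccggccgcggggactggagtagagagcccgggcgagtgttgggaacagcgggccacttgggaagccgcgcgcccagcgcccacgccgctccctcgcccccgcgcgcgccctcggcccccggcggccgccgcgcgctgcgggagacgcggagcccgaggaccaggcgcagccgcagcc
Rbm38: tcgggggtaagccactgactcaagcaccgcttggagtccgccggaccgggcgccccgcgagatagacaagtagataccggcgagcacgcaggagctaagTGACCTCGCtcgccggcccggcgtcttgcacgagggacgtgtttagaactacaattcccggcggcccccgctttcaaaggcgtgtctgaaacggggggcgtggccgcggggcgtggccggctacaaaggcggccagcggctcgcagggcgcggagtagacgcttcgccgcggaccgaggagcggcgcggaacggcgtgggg
Rbm15b: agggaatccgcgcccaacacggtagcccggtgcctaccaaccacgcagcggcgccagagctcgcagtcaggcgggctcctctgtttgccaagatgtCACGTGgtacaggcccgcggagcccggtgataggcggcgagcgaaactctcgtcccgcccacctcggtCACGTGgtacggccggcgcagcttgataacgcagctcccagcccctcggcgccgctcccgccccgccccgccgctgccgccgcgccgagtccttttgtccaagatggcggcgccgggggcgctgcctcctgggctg

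All 3 stretches are rich in G and C, at 68.3% for Rbm24, 69.3% for Rbm38 and 71.7% for Rbm15b. The motifs searched on both strands were the palindromic E-box CACGTG, the antioxidant response core TGACNNNGC, the CArG box of SRF, the MEF2 box and the p53 half-site. Rbm15b holds CACGTG at 2 places, starting at -154 and -86 from the gene start, and Rbm38 holds TGACNNNGC starting at -151. Rbm24 holds none of the 5 motifs in this window. Of 37 windows that belong to 34 of the 43 members, 3 hold CACGTG, 8.11%, against 6.42% of all 33469 windows, and 6 hold TGACNNNGC, 16.2%, against 12.1%. The CArG box, the MEF2 box and the p53 half-site are in 0 of the 37 windows and in 1.64%, 3.29% and 7.98% of all windows. Rbm11 and Rbm20 are among the members without a window, so these counts do not cover them.

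Rbm20 (gene ID 309544) was at 108 CPM in both vehicle libraries and at 100 CPM in both carfilzomib libraries. The groups did not overlap, but the log2 fold change was only -0.11 ± 0.05 (SE), and it ranged from -0.12 to -0.08 over 11 alternative analyses. Its level in FPKM was 16.2 and 16.1 with vehicle and 15.3 in both treated libraries. Of the 8 heart muscle markers the mildest fall was that of Tnnt2, cardiac troponin T, at -0.36 on the log2 scale. Rbm20 and Rbm24 both have counts with decimals, as reads shared out between genes would leave them. Genes with such a count in any library are called genes with split reads here; 16 of the 43 members have them.

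The RBFOX proteins bind the motif UGCAUG beside exons of muscle and nerve genes. Rbfox2 (gene ID 362950) was the abundant one, at 68.6 and 67.1 CPM with vehicle and at 80.3 and 74.0 CPM with carfilzomib. It rose by 0.19 ± 0.06 (SE) on the log2 scale, with an edgeR adjusted p of 0.0144. That call was lost with DESeq2, with an adjusted p of 0.0731, on leaving out vehicle replicate 2 (0.0694) and on leaving out carfilzomib replicate 1 (0.189), where the log2 value was 0.13. Rbfox1 was low, at 3.34 and 2.11 CPM with vehicle and at 1.99 and 2.75 CPM with carfilzomib, with overlapping groups and a log2 fold change of -0.20 ± 0.27 (SE). Rbfox3, known as the neuronal antigen NeuN, had 2 and 6 counts with vehicle and 2 and 0 with carfilzomib and did not reach the minimum for a test.

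The widest difference of the family was that of Rbm11 (gene ID 288321), a splicing regulator known mainly from brain and testis. Its estimated counts were 12 and 11 in the vehicle libraries and 434 and 441 in the carfilzomib libraries. In CPM these were 0.646 and 0.595 against 22.7 and 23.4, a fitted difference of 36.7-fold and a log2 fold change of 5.20 ± 0.16 (SE). No library of either group came near the other group, and only 2 of the 14519 genes tested had a larger fitted log2 fold change. Over the 11 alternative analyses its log2 fold change lay between 5.14 and 5.26. In FPKM it went from 0.350 and 0.320 to 12.5 and 12.9, a level close to that of Rbm24 in the same treated libraries, at 12.8 and 12.2 FPKM. No count of Rbm11 had decimals, and no other gene of the RefSeq table overlaps it. The authors' deposited table, from the same libraries, gives it a log2 fold change of 5.22. Rbm11 was chosen with its change in view, so its rank and the likeness of these estimates are description and no support.

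Because Rbm11 is known from brain, the markers of nerve and glial cells were read beside it. Of 7 such genes, 5 passed the filter on low counts, 1 rose, 2 fell and 2 did not pass. The 2 that fell were Elavl4 and Syt1. Elavl4 had 16 and 13 counts with vehicle and 4 and 4 with carfilzomib, and Syt1 14 and 18 against 6 and 1. Both passed that filter through the vehicle libraries alone, the group in which they were high. Their falls are therefore not read as support. The summed level of the 7 genes was 50.7 and 56.2 CPM with vehicle and 88.4 and 83.9 CPM with carfilzomib. Tubb3, a tubulin of neurons, made up most of that sum and rose from 43.6 and 49.0 to 83.1 and 78.5 CPM. The neuronal genes Elavl4, Snap25 and Syt1 were below 1 CPM in all 4 libraries, and none of these 3 was at 0 in any library.

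The remaining members known from few tissues lay below 10 CPM, apart from Rbm45. Rbm44 (gene ID 501183), known from germ cells, had 9 counts in each vehicle library and 40 and 34 in the carfilzomib libraries. Its log2 value was 1.99 ± 0.35 (SE), at an edgeR adjusted p of 1.53e-04, in a gene that stayed at 2.10 CPM or less. It passed the minimum count of 10 through the treated libraries alone, the group in which it was high. Its p is therefore not read as support, although Rbm44 is counted among the 16 members called higher. Rbm46, a germ-cell protein, was at 7.49 and 7.20 CPM with vehicle and at 7.76 and 7.79 CPM with carfilzomib. Its relative Rbm47, which helps APOBEC1 to edit messengers, was at 4.26 and 3.03 CPM against 4.403 and 4.19 CPM. Rbm45, a protein of developing nerve tissue, was at 22.9 and 24.6 CPM against 22.3 and 23.6 CPM, with overlapping groups. Rbm43 had an edgeR adjusted p of 0.0806, at -0.31 ± 0.15 (SE) on the log2 scale. Of these 4 genes none passed the test.

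**Figure D2:**
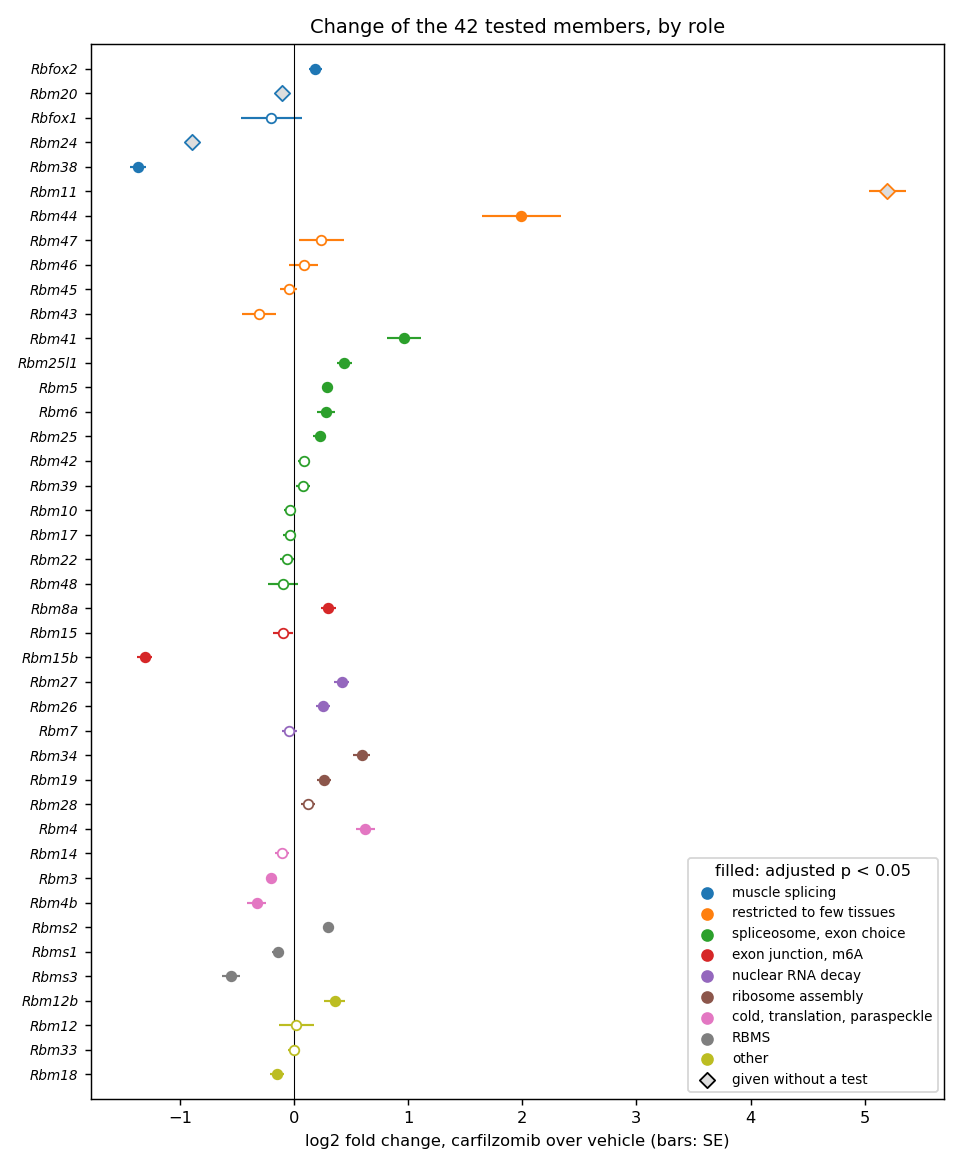
Log2 fold change of carfilzomib over vehicle for the 42 tested members, grouped and coloured by role; points are edgeR estimates, bars are SE over 2 libraries per group, filled circles passed the adjusted p of 0.05, open circles did not, and diamonds are Rbm11, Rbm20 and Rbm24, given without a test. Most members lie within 0.5 of 0, Rbm11 stands at 5.20, and Rbm38 and Rbm15b lie at -1.37 and -1.31.

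Of 11 tested members that work in or beside the spliceosome 5 rose and 0 fell, and 6 missed the threshold; the median was 0.08 on the log2 scale. The share called was 45.5%, against 60.7% of all genes tested. Among all genes tested 30.6% were called higher and 30.1% lower. At an unadjusted p below 0.05 the edgeR test also counted 0 falls among the 11 spliceosome members, and DESeq2 called 0 falls. These counts rest on the same 4 libraries, and the list was drawn up with earlier results known. Rbm25l1, a gene that rose, was added to the list after the files were read. Nothing is therefore read from the counts of rises and falls. Rbm41 (gene ID 680581), a protein of the minor spliceosome related to its subunit RNPC3, went from 4.58 and 3.90 CPM to 8.12 and 8.42 CPM. This rise of 1.95-fold, 0.96 ± 0.15 (SE) on the log2 scale, had an edgeR adjusted p of 5.04e-05.

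Rbm5, Rbm6 and Rbm10 are related proteins that act on exon choice in apoptosis genes. Rbm5 (gene ID 300996) rose from 108 and 109 CPM to 134 and 132 CPM, by 0.29 ± 0.05 (SE) on the log2 scale (edgeR adjusted p 6.56e-05). Rbm6, whose gene overlaps Rbm5 in the RefSeq table, went from 46.1 and 39.5 to 54.6 and 49.3 CPM. Its log2 fold change of 0.28 ± 0.08 (SE) passed, but leaving out vehicle replicate 2 gave 0.17 and leaving out carfilzomib replicate 1 gave 0.20 (edgeR adjusted p 0.107 and 0.0783). Rbm10 was at 81.4 and 81.6 CPM with vehicle and at 77.5 and 81.4 CPM with carfilzomib, and its log2 fold change was -0.04 ± 0.06 (SE).

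Rbm25 and its copy Rbm25l1 encode proteins rich in arginine and glutamate that bind near 5′ splice sites, and both have split reads. Rbm25 rose by 0.22 ± 0.06 (SE) and Rbm25l1 by 0.44 ± 0.07 (SE) on the log2 scale, with edgeR adjusted p of 0.00326 and 6.02e-05. Without carfilzomib replicate 1 the edgeR adjusted p of Rbm25 was 0.0514. With the counts of both summed, a step added after seeing the data, the pair stood at 158 and 155 CPM with vehicle and at 198 and 193 CPM with carfilzomib, a log2 fold change of 0.32 ± 0.04 (SE).

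The other spliceosome members lay within 0.10 of 0 on the log2 scale. Rbm39, the coactivator and splicing factor that aryl sulfonamide drugs mark for degradation, was at 200 and 174 CPM with vehicle and at 202 and 191 CPM with carfilzomib. The groups of Rbm39 overlapped, and its log2 fold change was 0.07 as fitted, 0.18 without vehicle replicate 1 (edgeR adjusted p 0.0122) and -0.02 without vehicle replicate 2. Rbm17, known as SPF45 of 3′ splice site choice, was at 62.3 and 60.1 CPM against 60.7 and 58.3 CPM, and Rbm22, which helps to form the catalytic core, at 64.8 and 67.6 against 64.1 and 62.5 CPM. Rbm42 had a log2 fold change of 0.08 ± 0.06 (SE) and Rbm48, which serves the minor spliceosome, one of -0.10 ± 0.13 (SE).

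RBM15 and RBM15B bring the m6A methyltransferase to its target messengers, and of their genes Rbm15b fell while Rbm15 did not pass the test. Rbm15b (gene ID 315988) was at 64.1 and 67.3 CPM with vehicle and at 25.9 and 27.1 CPM with carfilzomib, a fall of 2.48-fold. On the log2 scale this was -1.31 ± 0.06 (SE), at an edgeR adjusted p of 1.94e-10, and none of its counts had decimals. Rbm15 was at 16.9 and 16.6 CPM against 15.8 and 15.5 CPM, or -0.10 ± 0.09 (SE) on the log2 scale. Rbm8a, a core subunit of the exon junction complex that marks spliced messengers, rose by 0.30 ± 0.07 (SE) on the log2 scale, from 65.2 and 56.1 to 75.2 and 74.1 CPM. Without vehicle replicate 2 the rise of Rbm8a was 0.19, with an edgeR adjusted p of 0.0252.

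Members of nuclear RNA decay and of ribosome assembly either rose or did not pass, with 2 of 3 called in each group. That is 66.7%, against 60.7% of all genes called and 30.6% called higher. With 3 genes per group nothing is read from these shares. Rbm26 and Rbm27, related proteins linked to the decay of polyadenylated nuclear RNA, rose by 0.25 ± 0.06 (SE) and 0.42 ± 0.07 (SE) on the log2 scale. Rbm27 went from 40.1 and 43.03 to 53.5 and 57.5 CPM, with an edgeR adjusted p of 6.17e-05. Rbm7, which guides the exosome to short-lived nuclear RNA and is the closest relative of Rbm11, was at 30.3 and 30.4 CPM with vehicle and at 30.0 and 28.9 CPM with carfilzomib.

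Rbm19, Rbm28 and Rbm34 encode nucleolar proteins linked to ribosome assembly. Rbm34 (gene ID 307956) rose from 19.0 and 18.9 to 28.7 and 28.4 CPM, by 0.59 ± 0.07 (SE) on the log2 scale (edgeR adjusted p 6.17e-06). In the RefSeq table its gene overlaps Tomm20, and whether the counting used strand is not given. Rbm19 rose by 0.26 ± 0.06 (SE), from 35.2 and 36.5 to 43.1 and 42.8 CPM. Rbm28 had 0.12 ± 0.07 (SE) and an adjusted p of 0.124 in edgeR, with both treated libraries above both vehicle libraries.

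RBM3 is induced by mild cold and supports translation and the survival of stressed cells. Rbm3 (gene ID 114488), the most abundant member, fell from 382 and 366 CPM to 320 and 329 CPM, by 0.21 ± 0.04 (SE) on the log2 scale (edgeR adjusted p 4.8e-04). Cirbp, the other cold-inducible gene of this kind and outside the name pattern, rose from 41.4 and 41.5 to 49.2 and 52.5 CPM. Whether the changes of Rbm3 and Cirbp differ was not tested.

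Rbm4 and Rbm4b, which encode near-identical factors of splicing and stress-regulated translation, moved apart. Rbm4 rose from 27.5 and 33.7 to 45.8 and 48.4 CPM, a log2 fold change of 0.62 ± 0.08 (SE) with an edgeR adjusted p of 4.38e-05. Rbm4b fell from 21.7 and 21.9 to 16.6 and 18.0 CPM, by 0.33 ± 0.08 (SE) on the log2 scale (edgeR adjusted p 0.00329). The call of Rbm4b was lost with DESeq2, with an adjusted p of 0.0711, and without carfilzomib replicate 1, with 0.0549 in edgeR. Both genes have split reads, and in the RefSeq table both overlap Rbm14, a paraspeckle protein gene with -0.11 ± 0.06 (SE) on the log2 scale. Rbm14 was called lower only where vehicle replicate 1 was left out, at -0.18 and an edgeR adjusted p of 0.0257. With the counts of Rbm4 and Rbm4b summed, a step added after seeing the data, the log2 fold change was 0.30 ± 0.07 (SE), from 49.1 and 55.5 to 62.4 and 66.4 CPM.

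The RBMS genes encode proteins that bind single-stranded nucleic acids and AU-rich messengers. All 3 passed the test in differing directions, where 60.7% of all genes tested were called. Rbms2 (gene ID 288771), the second most abundant member, rose from 206 and 211 to 259 and 253 CPM, by 0.30 ± 0.04 (SE) on the log2 scale (edgeR adjusted p 1.79e-05). In the RefSeq table the gene Rbms2 overlaps Baz2a. Rbms3, known from fibroblasts and the stellate cells of liver, fell from 28.2 and 26.8 to 18.8 and 18.6 CPM, by 0.55 ± 0.08 (SE) on the log2 scale (edgeR adjusted p 1.56e-05). The 8 fibroblast markers fell in the same libraries, at a median of -0.82 on the log2 scale, and their part in the value of Rbms3 was not tested. Rbms1 fell by 0.14 ± 0.05 (SE) on the log2 scale, with an edgeR adjusted p of 0.0176. That of Rbms1 was 0.0883 with DESeq2, 0.0612 with library size alone, 0.0553 with the replicate number as a block, and 0.0942 and 0.132 without carfilzomib replicate 1 or 2.

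The last members have less defined roles. Rbm12b rose from 12.9 and 12.7 to 16.5 and 16.3 CPM, a log2 fold change of 0.35 ± 0.10 (SE) that DESeq2 did not call, with an adjusted p of 0.0953. This gene has split reads and overlaps Cibar1 in the RefSeq table. Rbm12 differed more between replicates of a group than between the group means, at 51.1 and 40.0 CPM with vehicle and at 42.6 and 49.7 CPM with carfilzomib. It has split reads and shares its locus with Cpne1 in the RefSeq table. Rbm18 fell by 0.15 ± 0.06 (SE) on the log2 scale (edgeR adjusted p 0.0431), a p above 0.05 in 6 of the 11 alternatives, up to 0.219 without carfilzomib replicate 1. The fall was 0.10 without vehicle replicate 2. In the RefSeq table the gene Rbm18 overlaps Mrrf. Rbm33 was at 101 and 94.5 CPM against 98.4 and 95.9 CPM.

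Of 15 pairs of relatives with both genes tested, 6 are set side by side here. Rbm24 and Rbm38 had -0.89 and -1.37, Rbm26 and Rbm27 0.25 and 0.42, and Rbm5 and Rbm6 0.29 and 0.28 on the log2 scale, so that the members of these pairs moved the same way. Rbm11 stood at 5.20 and Rbm7 at -0.04, Rbm15b at -1.31 and Rbm15 at -0.10, and Rbms2 at 0.30 and Rbms3 at -0.55. Of these pairs the gap between Rbm11 and Rbm7 was the widest, with SE of 0.16 and 0.07 for the 2 genes. Rbm11 was chosen with its change in view, so nothing is read from that order. Relatives of the same genes could go otherwise: Rbm5 and Rbm10 had 0.29 and -0.04, and Rbms1 and Rbms3 had -0.14 and -0.55. The differences within pairs were not tested themselves.

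**Figure D3:**
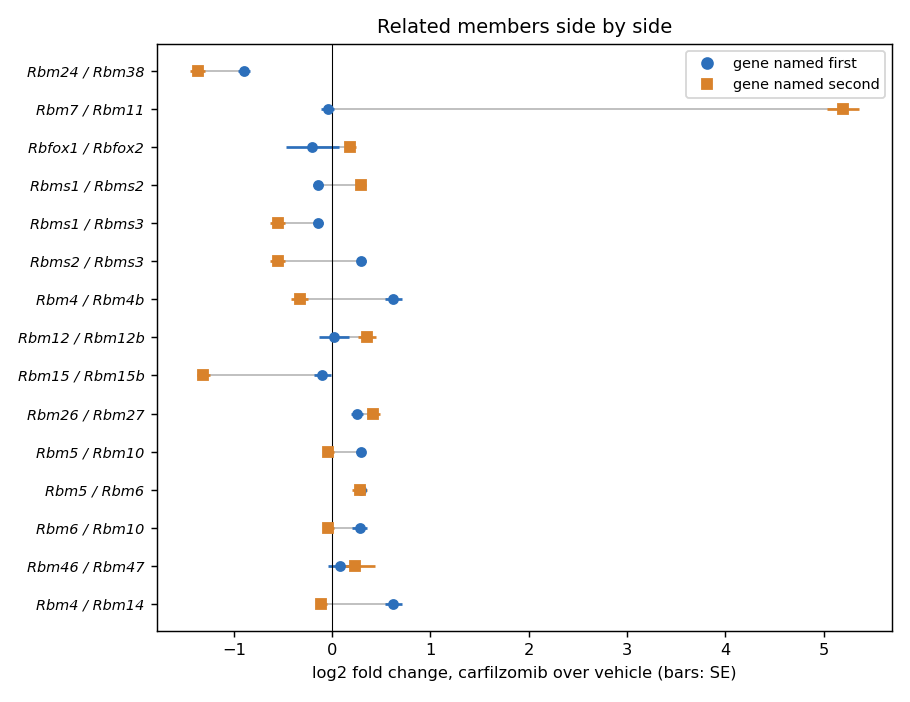
Log2 fold change of carfilzomib over vehicle for 15 pairs of related members in which both genes were tested; blue circles are the gene named first, orange squares the gene named second, and bars are SE over 2 libraries per group. Rbm24 and Rbm38 lie on the same side of 0, while Rbm7 stays at -0.04 beside Rbm11 at 5.20.

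Genes that act with the family were read from lists of known partners. As background, 60.7% of all genes tested were called, 30.6% higher and 30.1% lower. Of 19 transcripts known to be spliced by RBM20, 15 fell and 4 rose, and the median was -0.85 on the log2 scale, against 0.00 over all genes. Counts per gene hold no exon, so these values are total levels and say nothing of splicing. Ttn, titin, fell from 788 and 683 CPM to 399 and 401 CPM, and Ldb3, a protein of the Z-disc, from 714 and 713 to 219 and 212 CPM. Myom1, myomesin of the M-band, fell by 2.50 ± 0.05 (SE) on the log2 scale, and Rtn4, a protein of the endoplasmic reticulum, rose by 0.75 ± 0.04 (SE). Camk2d had 0.17 ± 0.05 (SE), with adjusted p of 0.0132 in edgeR and 0.0749 in DESeq2; leaving out vehicle replicate 2 or carfilzomib replicate 1 gave 0.0533 or 0.0936 in edgeR. The median of the heart muscle markers was -2.19, Ryr2 stands on both lists, and the part of the markers in these values was not tested.

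The next list holds kinases that phosphorylate arginine-serine stretches, such as that of RBM20, and the importer TNPO3. Of 8 tested 6 rose and 1 fell, 1 missed the threshold, and the median was 0.29; 30.6% of all genes were called higher. Clk4 rose from 30.9 and 27.2 to 55.2 and 57.0 CPM, a log2 fold change of 0.95 ± 0.07 (SE), and Tnpo3 by 0.27 ± 0.05 (SE). Srpk1 fell by 0.15 ± 0.05 (SE), with an edgeR adjusted p of 0.0181 that was 0.0891 with DESeq2, 0.0576 with library size alone, 0.0511 with the replicate block and 0.0742 to 0.115 without vehicle replicate 2 or either carfilzomib library.

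Of 15 other tissue splicing regulators 3 rose, 5 fell and 7 missed the threshold, so that 53.3% were called, near the 60.7% of all genes. Rbpms2, a splicing factor of heart muscle, rose from 64.5 and 65.4 to 94.0 and 91.5 CPM, while its relative Rbpms fell from 173 and 187 to 91.7 and 88.1 CPM. Among the partners of RBM15 and RBM15B in the m6A writer 4 of 6 rose and 2 missed the threshold, 66.7% called against 60.7% of all genes; the median was 0.30. Cbll1, a ubiquitin ligase subunit of the writer, rose by 0.46 ± 0.06 (SE) and Wtap, its scaffold, by 0.28 ± 0.06 (SE), beside the fall of Rbm15b.

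Among the exon junction and nonsense-mediated decay genes 5 of 11 rose, 1 fell and 5 did not pass; the 54.5% called were near the 60.7% of all genes. Upf3b, which links the junction to decay, rose by 0.74 ± 0.07 (SE), and Rnps1 fell by 0.41 ± 0.05 (SE). Magoh, the direct partner of RBM8A, had 0.16 ± 0.06 (SE), with an edgeR adjusted p of 0.0313 that was 0.183 with DESeq2, 0.0623 with the replicate block and 0.0981 to 0.126 when vehicle replicate 2 or either carfilzomib library was left out. Of 7 genes of the nuclear exosome and its adaptors 3 rose, 1 fell and 3 did not pass, 57.1% called and again near the 60.7% of all genes. Mtrex, the helicase that works with RBM7, rose by 0.46 ± 0.05 (SE) and Exosc10, a catalytic subunit, had -0.20 ± 0.06 (SE); the latter was not called by DESeq2, with an adjusted p of 0.0580, nor in edgeR without carfilzomib replicate 1, with 0.0536.

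Of 4 relatives outside the name pattern 1 rose, 2 fell and 1 did not pass, 75% called against 60.7% of all genes. Rbmx2, a protein of the spliceosome, had -0.35 ± 0.13 (SE) at an edgeR adjusted p of 0.0297, against 0.249 in DESeq2 and 0.0610 to 0.177 with any 1 library left out.

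**Figure D4:**
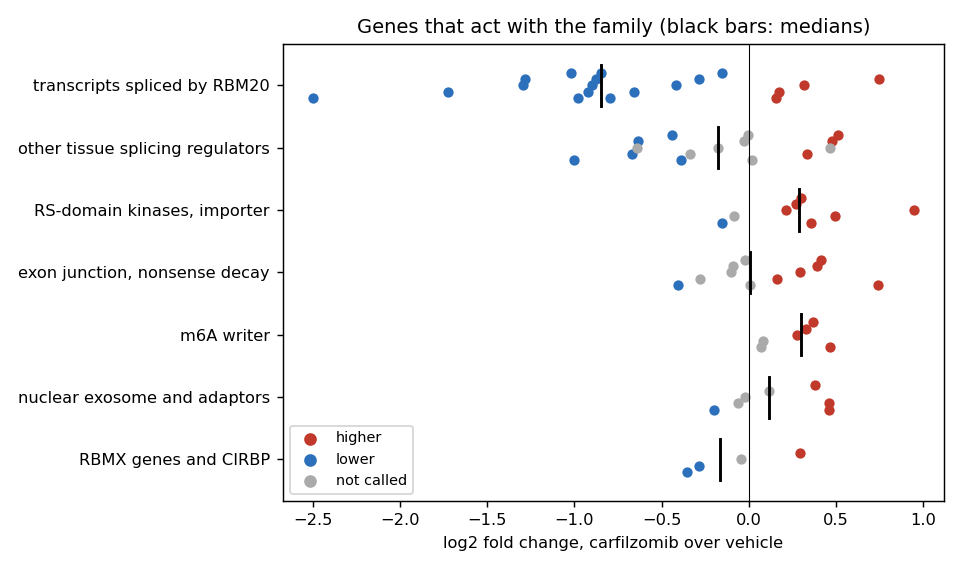
Log2 fold change of carfilzomib over vehicle for the tested genes of 7 lists of partners; each point is a gene (red called higher, blue called lower, grey not called) and black bars are list medians. The transcripts spliced by RBM20 have a median of -0.85, and the kinases and importer one of 0.29.

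The authors' deposited table of changed genes, which lists 6063 genes, holds 18 of the 43 members, 13 of them higher and 5 lower. All 18 were also called by edgeR. The direction of that table was read against the counts, so agreement in sign is no separate evidence. The 6 further members that edgeR called are Rbfox2, Rbm19, Rbm12b, Rbm4b, Rbm18 and Rbms1. Rbm20 is not in the authors' deposited table.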

How the data were processed

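RNA of 4 libraries of rat ventricular myocytes was compared, 2 with vehicle and 2 with carfilzomib; groups and replicate numbers come from the sample titles. Control columns were matched to vehicle titles by number. The deposited table holds raw estimated counts, per the file headers; in each library about 29% of genes have a count off a whole number by over 1e-06. The authors also deposited FPKM and TPM values, per the file headers; FPKM served to order genes by level, and TPM was not used. A second deposited table by the authors holds DESeq2 results, per the file headers: a log2 fold change, a p-value and a q-value per gene. The submitters' processing notes list Rnor_6.0, featureCounts 1.6.0, R 3.3.2, HISAT, FastQC 0.11.8, DESeq2, Bowtie2 and cutadapt 2.0, without roles.

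Counts were rounded and tested with edgeR 4.0.16 in R 4.3.3: filterByExpr (minimum count 10, total 15), TMM factors from 0.987 to 1.01, robust quasi-likelihood F test, Benjamini-Hochberg adjustment over all genes. SE is the absolute log2 fold change over the square root of F. Totals are those given above, and no confidence interval beyond the SE was computed. Alternatives were DESeq2 1.42.0, limma-voom (limma 3.58.1), RLE factors, library size alone, no filter, a stricter filter (1 CPM in 2 libraries, total of 50), a replicate block, each library left out, and members without split reads. The replicates of a group differed by more than sampling noise (chi-square per degree of freedom 3.42 for vehicle, 3.08 for carfilzomib). The scripts were tested on simulated data. The family, the 22 lists with 156 entries (2 unmatched, 1 matched through RefSeq as Qk) and the rule for named genes were chosen with earlier results of these data known; Rbm25l1 was added to its list after the files were read. The rule names every member, the largest called rise and fall of each partner list, and Ttn, Camk2d, Ldb3, Tnpo3, Cirbp, Magoh, Mtrex and Wtap; marker genes and Ryr2 were named outside it. Protein sequences were not used here.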

Additional observations from a re-analysis of the deposited data

How the results depend on the processing

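The number of members called higher was 16 in the edgeR test and stayed within 1.5 times of that in all 12 alternatives: it ranged from 13 to 17 with 1 library left out, and was 14 with DESeq2 and 11 of the members without split reads. The number called lower was 8. It was 5 with DESeq2 and 5 among members without split reads, where fewer genes are counted, and ranged from 5 to 9 with 1 library left out; the cause was not tested. The replicate block gave 16 higher and 6 lower. Same-numbered libraries did not deviate together, with a correlation of -1.1e-04 across genes, so the numbers were not read as pairs. Over all genes and over the partner lists the counts of calls stayed within 1.5 times of the main ones under all 11 alternatives run on them. Signs changed for members near 0. With library size alone Rbm33 had 0.028. With 1 library left out Rbm33 ranged from -0.051 to 0.042, Rbm12 from -0.15 to 0.21, Rbfox1 from -0.49 to 0.17, Rbm39 from -0.023 to 0.18 and Rbm45 from -0.10 to 1.2e-05. Rbm4b had 0.30 with its counts summed with those of Rbm4, an alternative added after seeing the data. Depth limits the precision for Rbfox3, for Rbm44 and Rbm11 with vehicle, and for Rbfox1.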
